A study of Mus musculus with 46 samples.

Results

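Carboxylesterases are serine hydrolases, most of them held in the endoplasmic reticulum of hepatocytes, that split the ester bonds of drugs, of other foreign esters and of stored lipids. In mice they are encoded by an expanded family that grew by tandem duplication, and single members take part in mobilising liver triacylglycerol for very low density lipoprotein (VLDL). Several are known to be induced through the nuclear receptors CAR (Nr1i3) and PXR (Nr1i2). The 10 genes described here, Ces1c, Ces1d, Ces1e, Ces1f, Ces1g, Ces2a, Ces2c, Ces2e, Ces3a and Ces3b, are 10 of the 20 carboxylesterase genes in a table of 53465 genes. They were chosen by name with their liver and kidney levels in the 2 genotypes already known, so their differences between genotypes in those organs are given as a description, without a p-value.

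Liver, kidney and cerebellum were taken from 16 C57BL/6 mice at postnatal day 23. All carried the P195A allele of Adar, which changes the part of ADAR1, an RNA editing enzyme, that binds Z-form nucleic acid. The P195A/p150- animals (p150neg) had a second allele that makes no p150, the interferon-induced isoform, while in the P195A/p150+ animals (p150pos) the second allele makes it. Thus p150neg mice had only the altered p150, and no wild-type group without P195A entered the comparisons. The labels give no sex. They name no tissue-specific promoter or Cre, and the libraries are of whole organs. In such bulk samples, fewer cells of a type and less RNA per cell cannot be told apart.

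Of 46 libraries, 5 that hold RNA of another organ than their label were left out (1 liver, 3 kidneys and 1 cerebellum), which leaves 7 p150neg and 7 p150pos livers, 5 and 7 kidneys, and 8 and 7 cerebella. Library totals ran from 0.53 to 4.3 M (M, 1000000 counts) in liver and from 0.27 to 4.88 M in kidney, the lowest being p150neg liver 16 and p150neg kidney 3, with each mouse called by the animal number in its labels. Levels are counts per M of the library total (CPM). Summed CPM of 4 liver identity genes (Alb, Apoa1, Serpina1c, Cps1) ran from 34639 to 66112 in p150neg and from 45866 to 66690.4 in p150pos livers. Summed CPM of 4 kidney identity genes (Umod, Slc34a1, Kap, Aqp2) ran from 9057 to 20240.5 in p150neg and from 10750.7 to 14422 in p150pos kidneys. Adar itself had medians of 7.62 CPM in p150neg and 10.9 CPM in p150pos livers (log2 fold change -0.59 ± 0.34 (SE), adjusted p = 0.317, edgeR), and counts per gene do not separate its p150 isoform, so this level does not check the genotype.

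Some kept libraries stood apart in ways that touch the genes described. In the liver of p150pos mouse 13, 25.3% of the genes tested were below 50% of the median of the other 6 p150pos livers, a share that ran from 3.02 to 9.34% when each of those 6 was set against the rest. That liver also had 4991 CPM of the mitochondrial ribosomal RNA mt-Rnr1, against 481 to 1369 CPM in the other 6, and 19142 CPM summed over ribosomal protein genes, against 4642 to 9682 CPM. The kidney of p150pos mouse 10 had 404 CPM of Alb (albumin), 1.19% of its median in p150pos livers, while the other 11 kidneys held at most 0.175%. Results that rest on either library are given with and without it. P150neg livers 1 and 16 had 16.4 and 19.6% of genes below 50% of the median of their group, and 2 kidneys that also stood apart are given with the kidney results.

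The 20 genes lie on chromosome 8 (GRCm38) in 2 runs with no other protein-coding gene inside. The first, from 93020214 to 93535830, holds 9 genes (the Ces1 genes and Ces5a). The second, from 104734003 to 105150109, holds 11 (the Ces2 and Ces3 genes and Ces4a). Over the coding sequence, Ces3a and Ces3b were identical at 95.3% of aligned bases. The closest relative of Ces1c was Ces1b at 91.2%, and that of Ces2c was Ces2b at 92.1%. Between members of different subfamilies identity was lower, for example 65.5% between Ces1c and Ces3a. These identities bear on the counts. Of all 50-base windows in the transcripts of Ces3a, 25.6% also occur in another carboxylesterase, as do 26.2% for Ces3b, 34.3% for Ces2c and 10.2% for Ces1c, against 0.301 to 3.3% for the other 6 genes. Reads from such windows can be dropped or moved by counting, so the values of Ces3a, Ces3b, Ces2c and Ces1c taken singly are uncertain, and those of Ces2c and Ces2a also because 18.2% and 16.4% of their windows occur in transcripts outside the family.

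The promoters of 4 genes are shown because their genes span the range of the liver differences described next: Ces3b, with the largest, Ces1g in the middle, and Ces1c and Ces2a with the smallest. Each runs from 250 bases before to 50 bases after the annotated start (RefSeq, GRCm38.p6), written in the gene's own direction. Capitals mark matches to 5 motifs searched on both strands: TTCNNNGAA for STAT5, CAAAGTCCA for HNF4, TTGCNCAA for C/EBP, GTTAAT for HNF1 and, for the common core promoter element, TATAAA.
Ces3b, chr8:105083505-105083804, plus strand: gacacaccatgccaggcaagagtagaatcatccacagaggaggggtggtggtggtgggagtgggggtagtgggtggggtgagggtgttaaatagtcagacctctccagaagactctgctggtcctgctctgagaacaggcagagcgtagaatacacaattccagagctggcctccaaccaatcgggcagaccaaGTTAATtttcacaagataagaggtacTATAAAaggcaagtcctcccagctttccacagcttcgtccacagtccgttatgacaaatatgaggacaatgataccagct
Ces1g, chr8:93337160-93337459, minus strand: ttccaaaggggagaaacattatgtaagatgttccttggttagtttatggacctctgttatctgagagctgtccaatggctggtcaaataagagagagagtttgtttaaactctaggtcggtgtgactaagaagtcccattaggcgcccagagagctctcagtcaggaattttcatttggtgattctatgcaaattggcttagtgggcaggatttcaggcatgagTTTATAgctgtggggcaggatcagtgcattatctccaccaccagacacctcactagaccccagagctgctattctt
Ces1c, chr8:93131234-93131533, minus strand: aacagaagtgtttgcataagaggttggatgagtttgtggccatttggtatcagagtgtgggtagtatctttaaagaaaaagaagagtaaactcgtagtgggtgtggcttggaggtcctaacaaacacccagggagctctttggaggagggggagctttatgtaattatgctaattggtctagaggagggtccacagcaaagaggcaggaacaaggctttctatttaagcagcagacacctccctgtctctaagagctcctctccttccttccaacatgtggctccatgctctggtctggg
Ces2a, chr8:104733753-104734052, plus strand: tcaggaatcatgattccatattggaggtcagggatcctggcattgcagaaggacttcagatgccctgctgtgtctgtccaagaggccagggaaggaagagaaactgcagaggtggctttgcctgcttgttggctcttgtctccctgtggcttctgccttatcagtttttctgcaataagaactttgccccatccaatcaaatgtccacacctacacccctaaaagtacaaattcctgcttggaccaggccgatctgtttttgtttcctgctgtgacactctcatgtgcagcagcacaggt
The Ces3b window holds GTTAAT with its first base 56 bases before the start and TATAAA 30 bases before it, and the Ces1g window holds TATAAA on the opposite strand, 26 bases before the start. The windows of Ces1c and Ces2a hold none of the 5 motifs. RefSeq promoters were at hand for 7 of the 10 genes, and in the other 3 of these (Ces1e, Ces2c, Ces2e) no match was found either. Among all 32851 promoters of the same length, 13.6% hold TATAAA, 7.1% GTTAAT, 8.3% TTCNNNGAA, 2.94% TTGCNCAA and 0.475% CAAAGTCCA. None of the matches overlaps another motif. A match is a run of letters and no measured binding site, and the absence of one says only that these letters are not in these windows.

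In liver all 10 genes had a lower mean in p150neg mice. The differences ran over a wide range, from less than a factor of 2 for Ces1c and Ces2a to more than a factor of 100 for both Ces3 genes. The threshold of 0.05 on adjusted p was set over the 9843 genes of the liver fit, of which 4.76% were called lower and 6.94% higher, and 9 of the 10 were called lower. Because this contrast chose the genes, nothing is read from that count. Ces2a was the gene not called. Without p150pos mouse 13 all 10 passed the same threshold. In 4 genes (Ces1c, Ces1f, Ces3a, Ces3b) every p150neg liver lay below every p150pos liver, a pattern found toward lower values in 1.65% of all genes tested and toward higher values in 2.45%. Without p150pos mouse 13 there were 6, Ces1e and Ces1g being added, beside 2.98% of all genes.

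**Figure D1:**
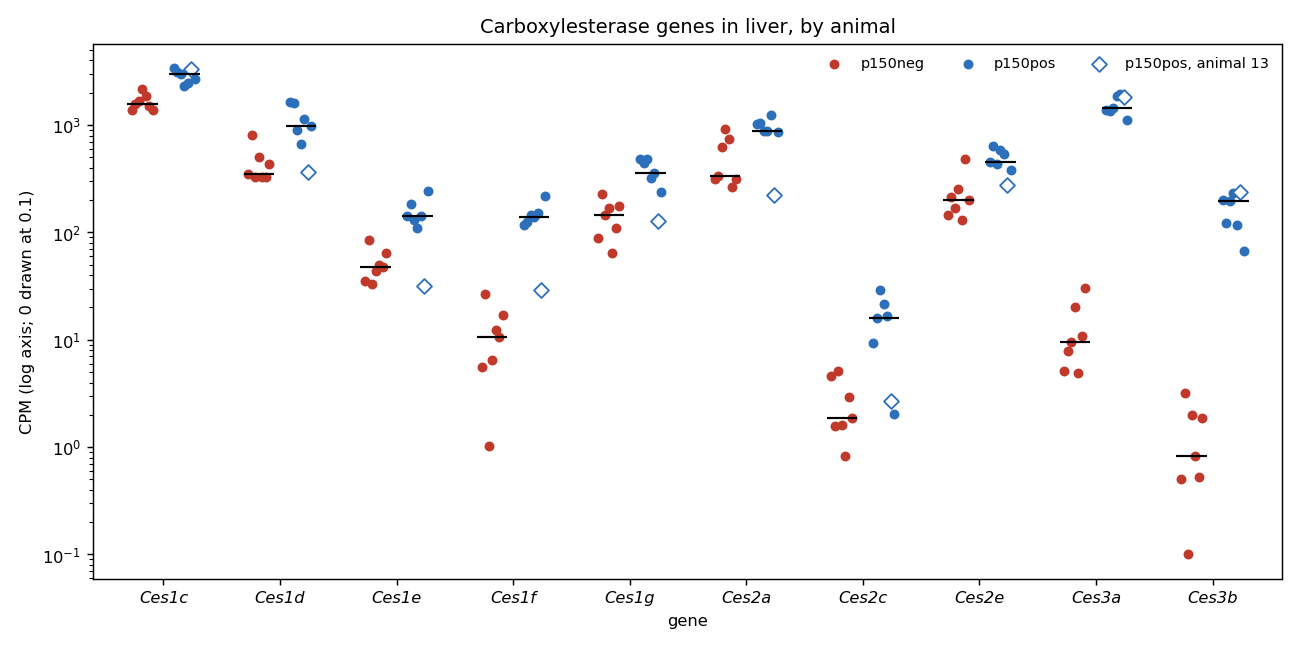
Levels of the 10 genes in 7 p150neg (red, left) and 7 p150pos (blue, right) livers, in CPM on a log axis, 1 point per mouse, with black bars at the medians and p150pos mouse 13 as an open diamond. The Ces3a and Ces3b points of the genotypes are far apart. Ces3a has at most 30.1 CPM in p150neg and at least 1127 CPM in p150pos livers, and Ces3b at most 3.17 and at least 67.1 CPM. The diamond lies low for Ces1d to Ces2e but not for Ces1c, Ces3a or Ces3b.

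The Ces3 genes code for esterases known from liver microsomes of the mouse. Ces3a ran from 4.93 to 30.1 CPM with a median of 9.59 CPM in p150neg livers, against 1127 to 1947 CPM with a median of 1443 CPM in p150pos livers. Its mean was 12.6 ± 9.22 CPM in p150neg and 1565 ± 308 CPM in p150pos livers (SD, n = 7 each), a ratio of means, p150neg over p150pos, of 0.00808 (log2 fold change -7.08 ± 0.39, SE). Ces3b ran from 0 to 3.17 CPM with a median of 0.822 CPM in p150neg livers, against 67.1 to 240.4 CPM with a median of 194.9 CPM in p150pos livers. The highest p150neg values of both genes were thus far below the lowest p150pos values. In p150neg livers Ces3b rested on 19 counts out of 16661038, which gives 1.14 CPM with an exact Poisson 95% interval of 0.687 to 1.78 CPM for counting error alone, against 3412 counts in p150pos livers. Its log2 fold change was -7.14 ± 0.48 (SE). Leaving out each liver in turn moved the log2 fold change of Ces3a between -7.36 and -6.93 and that of Ces3b between -7.65 and -6.84. Among p150neg livers Ces3a varied with a coefficient of variation of 72.9%, against 19.7% among p150pos livers, where the lowest value of each gene was that of mouse 15.

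Ces1f, a further enzyme of the Ces1 subfamily, stood between the Ces3 genes and the rest. It ran from 1.03 to 26.6 CPM (median 10.6 CPM) in p150neg livers, against 28.9 to 218 CPM (median 138 CPM) in p150pos livers. The 2 ranges were separated by little, because p150pos mouse 13 had 28.9 CPM, 20.5% of the median of the other 6, and without it the p150pos range began at 116 CPM. The log2 fold change of Ces1f was -3.55 ± 0.47 (SE). Ces2c, an enzyme with acylglycerol hydrolase activity, was the least abundant member in p150pos livers. It ran from 0.822 to 5.14 CPM (median 1.88 CPM) in p150neg livers, against 2.03 to 29.2 CPM (median 15.8 CPM) in p150pos livers. Its groups overlapped, since p150pos mice 13 and 15 had 2.7 and 2.03 CPM, and its log2 fold change was -2.29 ± 0.54 (SE).

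Ces1c, the esterase that is secreted and makes up most carboxylesterase of mouse plasma, was the most abundant member in both genotypes. It ran from 1384 to 2171 CPM (median 1582 CPM) in p150neg livers, against 2327 to 3384 CPM (median 2996 CPM) in p150pos livers. These groups did not overlap, although the fold change was among the smallest of the 10 at -0.77 ± 0.17 (log2, SE). Ces1d, the triacylglycerol hydrolase known for its part in VLDL assembly, ran from 326 to 812 CPM (median 351 CPM) in p150neg livers, against 363 to 1629 CPM (median 973 CPM) in p150pos livers. Its ranges overlapped through p150neg mouse 3, at 812 CPM, and p150pos mouse 13, at 363 CPM, with a log2 fold change of -1.17 ± 0.28 (SE). Ces1e, known as egasyn for holding beta-glucuronidase in the endoplasmic reticulum, ran from 32.9 to 84.8 CPM (median 47.2 CPM) in p150neg livers, against 32.0 to 242 CPM (median 142 CPM) in p150pos livers. The p150pos liver of mouse 13 lay below all p150neg livers and the other 6 p150pos livers lay above them, and the log2 fold change was -1.41 ± 0.31 (SE). Ces1g, an esterase whose loss in mice is known to alter liver lipids, ran from 64.1 to 228 CPM (median 144 CPM) in p150neg livers, against 128 to 486 CPM (median 359 CPM) in p150pos livers. Mouse 13 was again the only p150pos liver below the highest p150neg one, and the log2 fold change was -1.27 ± 0.28 (SE).

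Ces2a and Ces2e belong to a subfamily known for hydrolysing drug esters, and both overlapped between genotypes. Ces2a ran from 263 to 914 CPM (median 335 CPM) in p150neg livers, against 224 to 1251 CPM (median 887 CPM) in p150pos livers. Its p150neg livers fell into 4 at 263 to 335 CPM and 3 at 632 to 914 CPM, the higher ones being mice 8, 9 and 11, and the lowest liver of all was p150pos mouse 13. The log2 fold change of Ces2a was -0.76 ± 0.31 (SE) with that mouse and -0.93 without it. Ces2e ran from 131 to 488 CPM (median 201 CPM) in p150neg livers, against 279 to 638 CPM (median 452 CPM) in p150pos livers. Here p150neg mouse 14, at 488 CPM, stood above 4 of the 7 p150pos livers, and the log2 fold change was -1.02 ± 0.25 (SE).

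**Figure D2:**
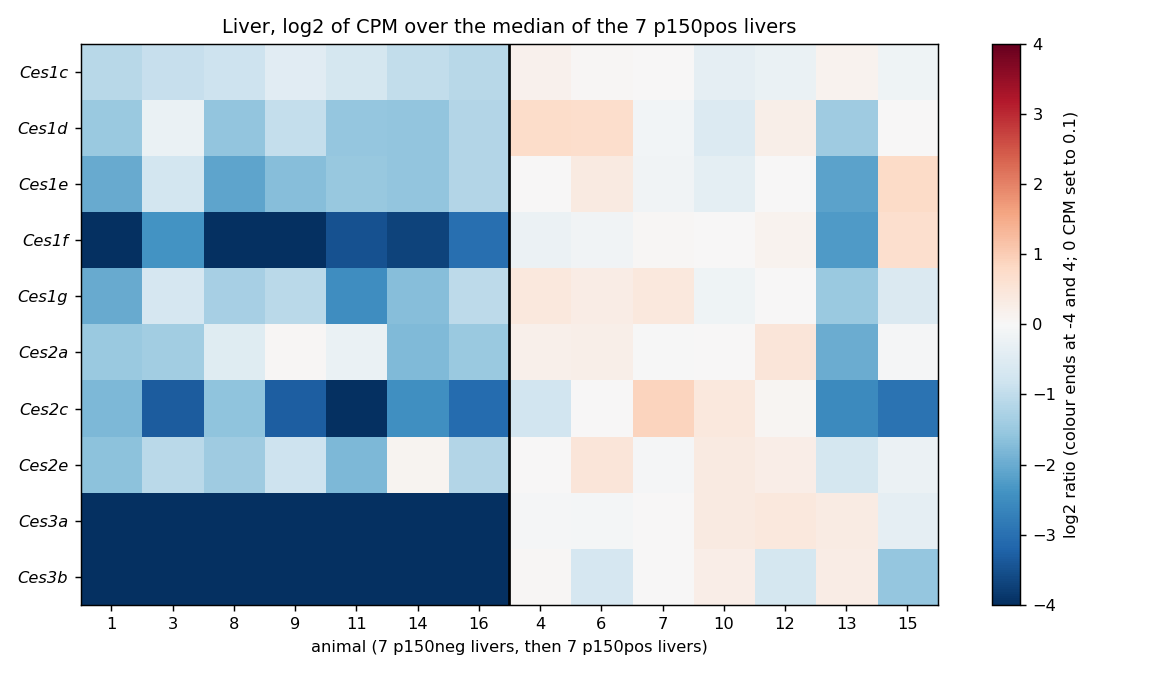
Each of the 10 genes (rows) in each liver (columns: 7 p150neg mice left of the line, 7 p150pos mice right of it), as log2 of its CPM over the median of the p150pos livers, with colours ending at -4 and 4 and 0 CPM set to 0.1. The Ces3 rows are dark in all 7 p150neg mice, the other rows vary between mice, and the column of p150pos mouse 13 is low for 6 genes at 16.6 to 34.3% of the median of the other 6 p150pos livers.

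The liver that stood apart split the 10 genes. In p150pos mouse 13, 6 genes lay at 16.6 to 34.3% of the median of the other 6 p150pos livers (Ces1d, Ces1e, Ces1f, Ces1g, Ces2a, Ces2c) and Ces2e lay at 56.2%. In the same liver Ces1c lay at 117%, Ces3a at 128% and Ces3b at 152%. The part of that library's other differences, given above, in this split was not tested. The first letters of the mouse identifiers, whose meaning the labels do not give, offered a comparison within each set. The means of all 10 genes were lower in p150neg mice in the sets P094 (2 against 2 mice), AC (3 against 3) and AS (1 against 1), a direction that the choice of the genes favours. The 3 p150neg mice with the higher Ces2a (8, 9 and 11) were the 3 of set AC. There Ces2a averaged 763 CPM in p150neg and 1007 CPM in p150pos livers, with overlap, and the part of the set in this was not tested. In AA, which is p150neg mouse 14 against p150pos mouse 13, 6 were lower and 4 higher (Ces1e, Ces2a, Ces2c, Ces2e), but Ces3a still had 10.8 against 1813 CPM and Ces3b 0.528 against 240.4 CPM.

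Taken per length of exon, which allows genes to be compared, the make-up of the family differed between genotypes. In p150neg livers the order was Ces1c (712 ± 121 CPM per kb, SD, n = 7), then Ces2a (213 ± 109), Ces1d (186 ± 74.6), Ces2e (84.8 ± 45.1), Ces1g (58.7 ± 23.6), Ces1e (23.4 ± 8.22), Ces3a (4.81 ± 3.51), Ces1f (3.45 ± 2.57), Ces2c (1.15 ± 0.712) and Ces3b (0.496 ± 0.435). In p150pos livers it was Ces1c (1250.0 ± 177 CPM per kb), Ces3a (596 ± 117), Ces1d (438 ± 195.3), Ces2a (374 ± 136), Ces2e (175 ± 45.7), Ces1g (147 ± 55.5), Ces3b (65.7 ± 25.8), Ces1e (64.2 ± 29.6), Ces1f (40.2 ± 17.1) and Ces2c (6.05 ± 4.32). The ranges of neighbours in these orders overlapped between mice, with these exceptions. The range of Ces1c lay above all others in both genotypes, and that of Ces1e above that of Ces3a in p150neg livers. Overlap of ranges between mice does not give the order within a liver. Ces3a stood seventh of 10 in p150neg and second in p150pos livers. As a share of the CPM summed over the 10 genes, Ces3a held 0.422 ± 0.337% in p150neg and 20.7 ± 5.19% in p150pos livers, and Ces1c 54.6 ± 3.74% and 38.3 ± 6.84% (SD, n = 7 each). The sum itself was 3045 ± 567 CPM in p150neg and 7666 ± 917 CPM in p150pos livers.

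The other 10 carboxylesterase genes are not among the genes described and could be tested, though they were listed with earlier results of these data known. Ces1b and Ces2g passed the filter on low counts in liver, and both fell in p150neg mice. Ces1b, the close relative of Ces1c, ran from 88.3 to 147 CPM in p150neg livers, against 216 to 315 CPM in p150pos livers, with no overlap (log2 fold change -1.14 ± 0.17, SE, adjusted p = 7.78e-05, edgeR quasi-likelihood test). Ces2g ran from 22.8 to 51.3 CPM in p150neg livers, against 61.0 to 114 CPM in p150pos livers, also with no overlap (-1.25 ± 0.21, adjusted p = 3.07e-04). Ces4a, too low to be tested, ran from 0 to 3.04 CPM in p150neg livers, against 0.678 to 45.5 CPM in p150pos livers. Ces1h, Ces2f, Ces2h and Ces5a had 0 counts in all 14 livers, and Ces1a, Ces2b and Ces2d-ps had at most 1.88 CPM in any. The genes next to the runs were tested for contrast. In liver, Nudt21, Ciao2b, Cbfb and D230025D16Rik passed the filter, and none of these 4 was called, with log2 fold changes from -0.54 (Ciao2b, adjusted p = 0.168) to 0.21 (Nudt21, adjusted p = 0.726).

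**Figure D3:**
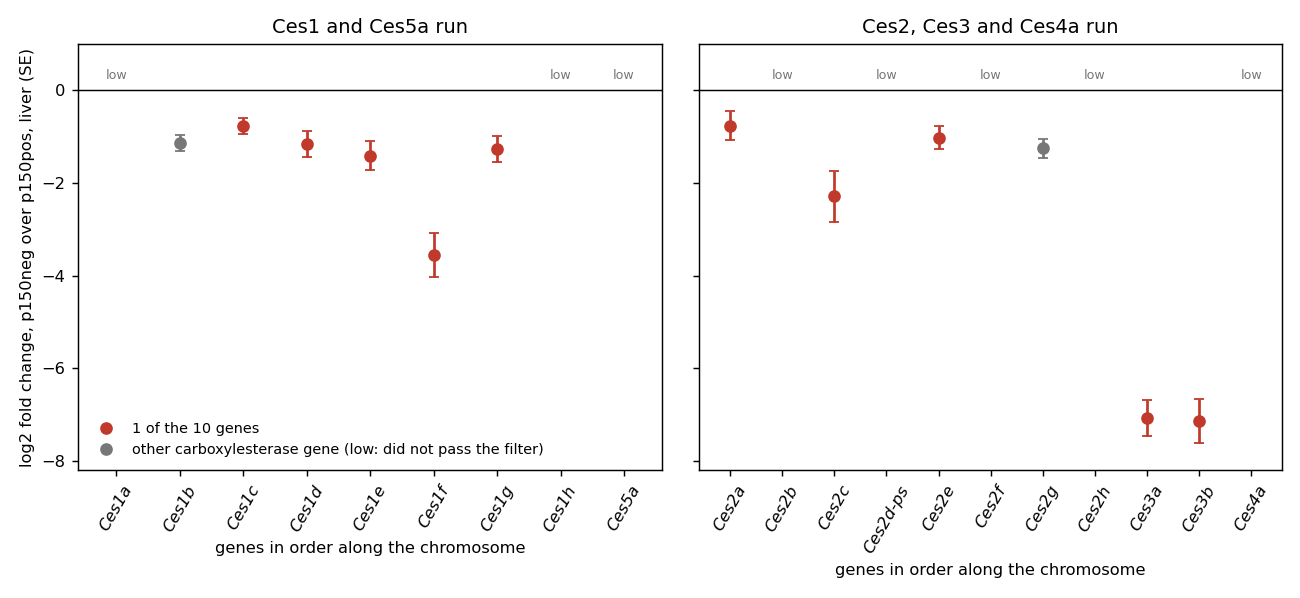
Liver log2 fold changes, p150neg over p150pos, with SE, for carboxylesterase genes in their order along the chromosome in the 2 runs, the 10 genes in red, Ces1b and Ces2g in grey, and genes that did not pass the filter written as low. All points lie under 0, from -0.76 for Ces2a to -7.14 for Ces3b, and the neighbours of the Ces3 genes that were tested lie near -1. Ces4a, next to Ces3b and written as low, averaged 1.46 CPM in p150neg and 21.9 CPM in p150pos livers.

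Lists of related functions, drawn up with earlier results of these data known, show how other liver genes moved beside the family. Among 11 tested hydrolases of neutral lipids other than carboxylesterases, 4 fell and 1 rose in p150neg livers, with a median log2 fold change of -0.28 beside -0.04 over all genes. Hepatic lipase (Lipc) averaged 111 ± 32.9 CPM in p150neg and 278 ± 37.8 CPM in p150pos livers (-1.29 ± 0.18, adjusted p = 4.24e-05, edgeR). Aadac, a microsomal deacetylase that overlaps with carboxylesterases in its substrates, averaged 587 ± 186 CPM in p150neg and 1257 ± 171 CPM in p150pos livers (-1.05 ± 0.20, adjusted p = 0.00127, edgeR). Monoglyceride lipase (Mgll) fell by 1.03 on the log2 scale, and lipoprotein lipase (Lpl) rose by 0.88, a call lost without p150neg mouse 11 (adjusted p = 0.0525, edgeR). The fourth that fell was Abhd6, a monoacylglycerol hydrolase (-0.57 ± 0.18, adjusted p = 0.047, edgeR), named here after its value was seen.

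Of 14 tested genes of VLDL assembly and lipid droplets, 2 rose and 2 fell, with a median log2 fold change of 0.07. Apoa4, an apolipoprotein of triacylglycerol-rich particles, averaged 353 ± 231 CPM in p150neg and 17.6 ± 10.1 CPM in p150pos livers (4.37 ± 0.47, adjusted p = 3.26e-06, edgeR). Cidec, a lipid droplet protein, averaged 87.5 ± 75.3 CPM in p150neg and 3.34 ± 1.29 CPM in p150pos livers (4.73 ± 0.58, adjusted p = 1.38e-05, edgeR). Sar1b, which serves the export of lipoproteins from the endoplasmic reticulum, fell by 0.65 on the log2 scale, and Fitm1, a droplet-forming protein, by 1.7. Of 7 tested esterases and paraoxonases of other families, 1 fell: Pon1, a secreted paraoxonase, averaged 845 ± 158 CPM in p150neg and 1728 ± 128 CPM in p150pos livers (-0.98 ± 0.18, adjusted p = 7.36e-04, edgeR). The KDEL receptors, which return proteins such as carboxylesterases to the endoplasmic reticulum, had 2 tested members, neither of which was called.

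Of 19 transcriptional regulators of hepatocyte genes, 1 fell and none rose. Cebpa, a factor that drives the mature hepatocyte programme, averaged 23.1 ± 10.5 CPM in p150neg and 53.8 ± 13.6 CPM in p150pos livers (-1.19 ± 0.27, adjusted p = 0.00451, edgeR). The transcripts of the receptors that induce carboxylesterases did not pass the test, with log2 fold changes of 0.27 ± 0.29 for Nr1i3 (adjusted p = 0.657) and 0.22 ± 0.28 for Nr1i2 (adjusted p = 0.714).

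Markers of cell types and zones moved with the genotype in liver, and their part in the carboxylesterase differences was not tested. Summed CPM of 6 neutrophil markers ran from 398 to 1538 in p150neg and from 22.6 to 169 in p150pos livers, and all 6 rose, among them S100a8 at 346 ± 221 and 25.4 ± 16.7 CPM. Summed CPM of 6 Kupffer cell and macrophage markers ran from 897 to 2379 in p150neg and from 321 to 692 in p150pos livers, and 5 rose. Of 5 pericentral hepatocyte markers 3 fell (Cyp1a2, Slc1a2, Glul), and their summed CPM ran from 1664 to 4341 in p150neg and from 2503 to 8475 in p150pos livers. Of 5 periportal markers 2 fell (Cyp2f2, Ass1), with sums of 941 to 1725 and 1507 to 3522 CPM. The call of Ass1 was lost with any of 5 livers left out in turn, p150neg mice 8, 14 and 16 and p150pos mice 7 and 10, at log2 fold changes from -0.86 to -0.79. Of 4 liver identity genes 1 fell, Serpina1c, a serine protease inhibitor. It lost its call with any of 9 livers left out, p150neg mice 1, 3, 8, 9, 11 and 14 and p150pos mice 10, 13 and 15, and without mouse 13 its log2 fold change was -0.74 against -1.26 with it (adjusted p = 0.103 and 0.0431, edgeR).

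Variation among mice of the same genotype, which did not choose the genes, was set against 3 liver transcripts: Lcn2, an acute-phase gene, Igf1, a target of growth hormone, and Nr1i3. Of 60 relations (10 genes, 3 transcripts, 2 genotypes of 7 mice each), none passed after adjustment, by Pearson's or Spearman's coefficient with exact two-sided permutation. At an unadjusted p under 0.05 there were 4 by Pearson's coefficient, all in p150pos livers. Among 60 relations a few such values arise by chance. Without the 2 mice farthest from the median of the transcript there was 1. Ces2a against Lcn2 had r = -0.80 (exact p = 0.00258, adjusted 0.143) and rho = -0.86 (exact p = 0.0238, adjusted 0.714). Ces1d against Lcn2 had r = -0.90 (exact p = 0.00476, adjusted 0.143) and rho = -0.93 (exact p = 0.00675, adjusted 0.405). Mouse 13 had the highest Lcn2 of the p150pos livers, 234 CPM, and the lowest Ces1d and Ces2a. Without the 2 mice farthest from the median of Lcn2, r was -0.82 for Ces2a (exact p = 0.05) and -0.72 for Ces1d (exact p = 0.158). The other 2 were Ces1g and Ces2e against Igf1, with r = -0.90 (exact p = 0.0181) and -0.78 (exact p = 0.0187), rho = -0.54 and -0.75 (exact p = 0.236 and 0.0663), and adjusted p = 0.28 for both r and 0.915 for both rho. Without the 2 mice farthest from the median of Igf1, r was -0.65 for Ces1g and -0.85 for Ces2e.

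The genes whose pattern over the 6 groups of organ and genotype was nearest to a member were found among 3762 genes by the root mean square difference of centred mean log2 CPM. For Ces3a these were Mup3, a major urinary protein (difference 0.34), Cyp2c69 (0.73) and Serpina1e (0.81). Mup3 averaged 2.63 log2 CPM in p150neg and 10.3 in p150pos livers, beside 3.47 and 10.6 for Ces3a. For Ces1c they were Mug1, Cyp2c29 and Plg (0.25 to 0.30), and for Ces2a Cyp2c68, Cfhr2 and Serpina1c (0.18 to 0.19). The difference is taken over all 6 groups, so a near gene need not share the genotype difference in liver. Mug1 and Cyp2c29 had lower means in p150neg livers, as Ces1c had, but Plg averaged 2252 ± 684 CPM in p150neg and 2122 ± 586 CPM in p150pos livers (SD). The Mup, Cyp2c and Serpina1 genes also belong to families with close copies, and many Mup and Cyp2c genes are known to differ between the sexes in adult mouse liver. With Xist, a transcript of female cells, as a covariate, the liver log2 fold change of Ces3a was -7.04 and that of Ces3b -7.06. The part of sex in these differences was not tested.

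In kidney 5 of the 10 genes passed the filter on low counts (Ces1d, Ces1e, Ces1f, Ces2c, Ces2e). Ces1d alone was called, lower in p150neg kidneys, and alone had groups that did not overlap. Of 11957 genes tested in kidney 0.309% were called lower and 0.385% higher, and the groups did not overlap in 1.02% toward lower and 0.828% toward higher values. As in liver, this contrast chose the genes and nothing is read from the counts.

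**Figure D4:**
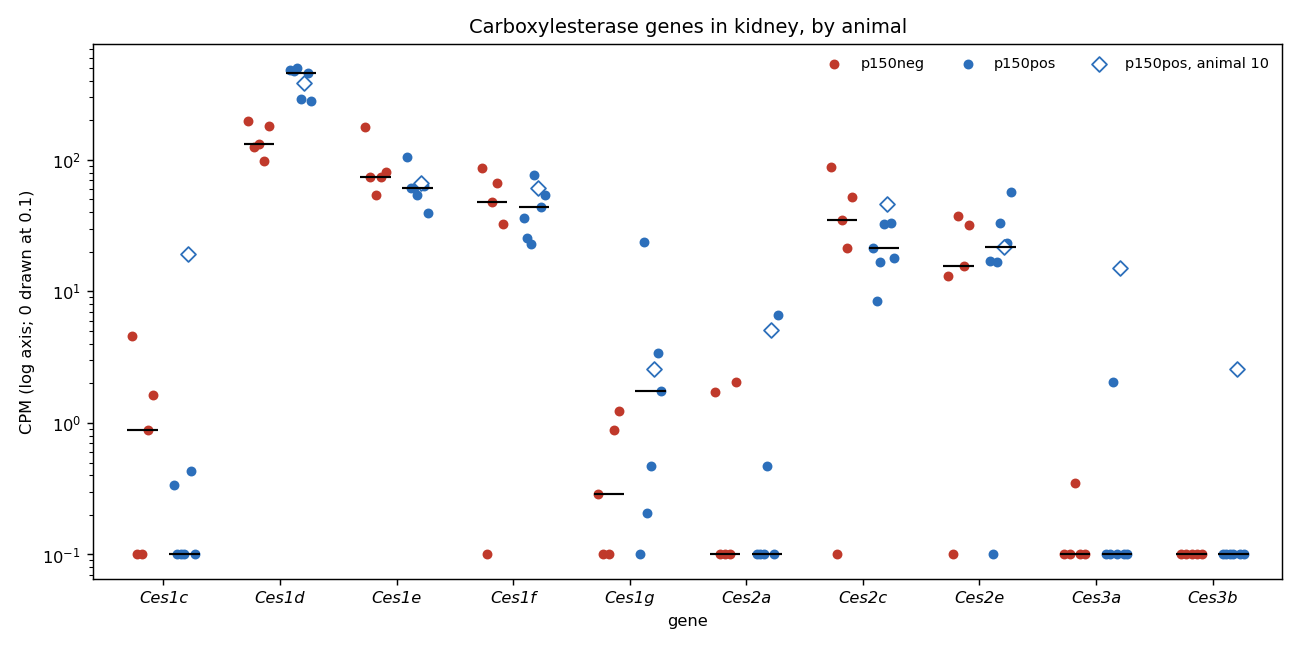
Levels of the 10 genes in 5 p150neg (red, left) and 7 p150pos (blue, right) kidneys, in CPM on a log axis with 0 drawn at 0.1, 1 point per mouse, black bars at the medians and p150pos mouse 10 as an open diamond. Ces1d is separated between genotypes (at most 196 CPM in p150neg and at least 281 CPM in p150pos kidneys), and Ces1c, Ces3a and Ces3b are near 0 except in p150pos mouse 10.

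Ces1d had 196, 126, 133, 98.0 and 182 CPM in the kidneys of p150neg mice 1, 3, 8, 9 and 16, against 281 to 497 CPM with a median of 455 CPM in the 7 p150pos kidneys. Every p150neg kidney lay below every p150pos kidney. The log2 fold change was -1.57 ± 0.24 (SE) and ranged from -1.7 to -1.46 with each kidney left out in turn. Within identifier sets the mean of Ces1d was 161 CPM in p150neg and 487 CPM in p150pos kidneys of P094 (2 against 3 mice), 115 and 336 CPM in AC (2 against 2), and 182 and 281 CPM in AS (1 against 1). Ces1d is also expressed by fat cells, and the 5 adipocyte markers summed to 0 to 92.6 CPM in p150neg and 0.469 to 422 CPM in p150pos kidneys. The 6 proximal tubule markers summed to 2648 to 4063 CPM in p150neg and 3902 to 6605 CPM in p150pos kidneys, and 1 of them fell (Slc5a2, -1.89 ± 0.32, adjusted p = 0.00854, edgeR), a call lost with the identifier prefix as a block (-1.67, adjusted p = 0.0567). Set against that sum in the same kidney, Ces1d was 3.44 to 5.45% in p150neg and 6.1 to 11.8% in p150pos kidneys, again without overlap. Neutrophil markers summed to 108 to 223 CPM in p150neg and 6.77 to 81.6 CPM in p150pos kidneys, and S100a8 rose (3.48 ± 0.64, adjusted p = 0.0147, edgeR). Its call was lost without p150neg mouse 16 (adjusted p = 0.0554), without p150pos mouse 4 (0.0514) or 6 (0.0512), and with the prefix block (0.0852). The part of these markers in the level of Ces1d was not tested. In kidney no gene of the lists of neutral lipid hydrolases, VLDL assembly, other esterases, regulators and KDEL receptors was called.

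The other 4 members that passed the filter showed no such separation in kidney. Ces1e had 177, 74.3, 54.3, 74.0 and 80.7 CPM in p150neg mice 1, 3, 8, 9 and 16, against 39.5 to 105 CPM (median 61.6 CPM) in p150pos kidneys, with a log2 fold change of 0.43 ± 0.33 (SE). Ces1f, at -3.55 in liver, had 86.0, 0, 48.0, 67.3 and 32.8 CPM in the p150neg kidneys in the same order, against 22.8 to 76.9 CPM (median 43.9 CPM) in p150pos kidneys, with a log2 fold change of 0.05 ± 0.50 (SE). The 0 is from mouse 3, whose library of 0.27 M allows up to 11.1 CPM at a count of 0 (3 counts, counting error only). Ces2c had 88.0, 0, 35.0, 21.4 and 52.1 CPM in p150neg kidneys, against 8.47 to 46.6 CPM (median 21.5 CPM) in p150pos kidneys, with a log2 fold change of 0.64 ± 0.56 (SE). Ces2e had 13.1, 0, 37.5, 15.6 and 32.0 CPM in p150neg kidneys, against 0 to 57.1 CPM (median 21.8 CPM) in p150pos kidneys, with a log2 fold change of -0.27 ± 0.68 (SE). The genotypes overlapped for all 4. Whether the genotype differences of these genes differ between liver and kidney was not tested. Of the other carboxylesterases Ces2g was tested in kidney and did not pass (-0.57 ± 0.53, adjusted p = 0.905, edgeR).

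Ces1c, Ces3a and Ces3b were near the limit of detection in kidney apart from 1 library. In p150pos mouse 10 they had 19.2, 15.0 and 2.57 CPM, which is 0.642, 1.04 and 1.32% of their median in p150pos livers, beside 1.19% for Alb in the same library. In the other 11 kidneys Ces3b had 0 counts, Ces3a at most 2.05 CPM and Ces1c at most 4.57 CPM (p150neg mouse 1). Ces2a was also low, at 0 to 2.05 CPM in p150neg and 0 to 6.59 CPM in p150pos kidneys. Its highest value was that of p150pos mouse 15, where Alb had 4.83 CPM, and p150pos mouse 10 had 5.13 CPM of Ces2a. Ces1g had at most 3.43 CPM except in p150pos mouse 5, at 23.9 CPM, where Alb had 48.5 CPM, 0.143% of its median in p150pos livers. In that kidney 34.5% of tested genes were below 50% of the median of the other p150pos kidneys. In p150neg mouse 3, 59.5% were below 50% of the median of the other p150neg kidneys. The rest of the kidneys, each set against the others of its genotype, had at most 5.81%.

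Levels in the 2 organs of p150pos mice were among the values known when the genes were chosen, so the differences between organs are also given as a description. Of the 10 genes 9 had higher fitted levels in liver past the threshold, in a fit where 22.2% of 11286 genes were called higher in liver and 22.5% lower, and nothing is read from that count. Ces1c had 2327 to 3384 CPM in liver and 0 to 19.2 CPM in kidney (log2 fold change, liver over kidney, 10.9 ± 1.0, SE). Ces3a (10.2 ± 0.88), Ces2a (9.94 ± 0.78), Ces3b (9.73 ± 0.64) and Ces1g (7.43 ± 0.74) were also far higher in liver, as was Ces2e (5.11 ± 0.47). In contrast Ces1d (2.13 ± 0.28), Ces1f (2.33 ± 0.34) and Ces1e (1.91 ± 0.31) were expressed in both organs and differed less. Ces2c was the only member not called, at -0.09 ± 0.48, with 2.03 to 29.2 CPM in liver and 8.47 to 46.6 CPM in kidney. The fold changes were fitted after TMM scaling of the libraries, which CPM do not have, so the 2 are on unlike scales. In CPM, Ces2c averaged 13.9 in liver and 25.3 in kidney. Outside the 10, Ces1b and Ces2g were higher in liver too (9.13 ± 0.66, adjusted p = 1.13e-09, and 4.67 ± 0.31, adjusted p = 4.38e-10, edgeR).

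The kidney of mouse 10 decides the size of several of these values. Without it the fitted log2 fold change of Ces1c was 14.5 that of Ces3a 12.3 and that of Ces2a 10.6. Ces1b, at 6.41 CPM in that kidney and at most 0.205 CPM in the other 6 p150pos kidneys, was at 12.2 without it (adjusted p = 1.16e-13, edgeR). The other 6 p150pos kidneys then held 3 counts of Ces1c in 18.2 M. The ratio of pooled CPM, without TMM scaling, was 17888 with a 95% counting interval of 6121 to 86743. Ces3b had 0 counts in these 6 kidneys and was at least 983-fold higher in liver in pooled CPM (3 counts over the group). Without kidney 5 the value for Ces1g was 8.7, and without kidney 15 that for Ces2a was 10.8. With DESeq2 in place of edgeR the log2 fold change of Ces1c was 3.92 and it was not called.

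**Figure D5:**
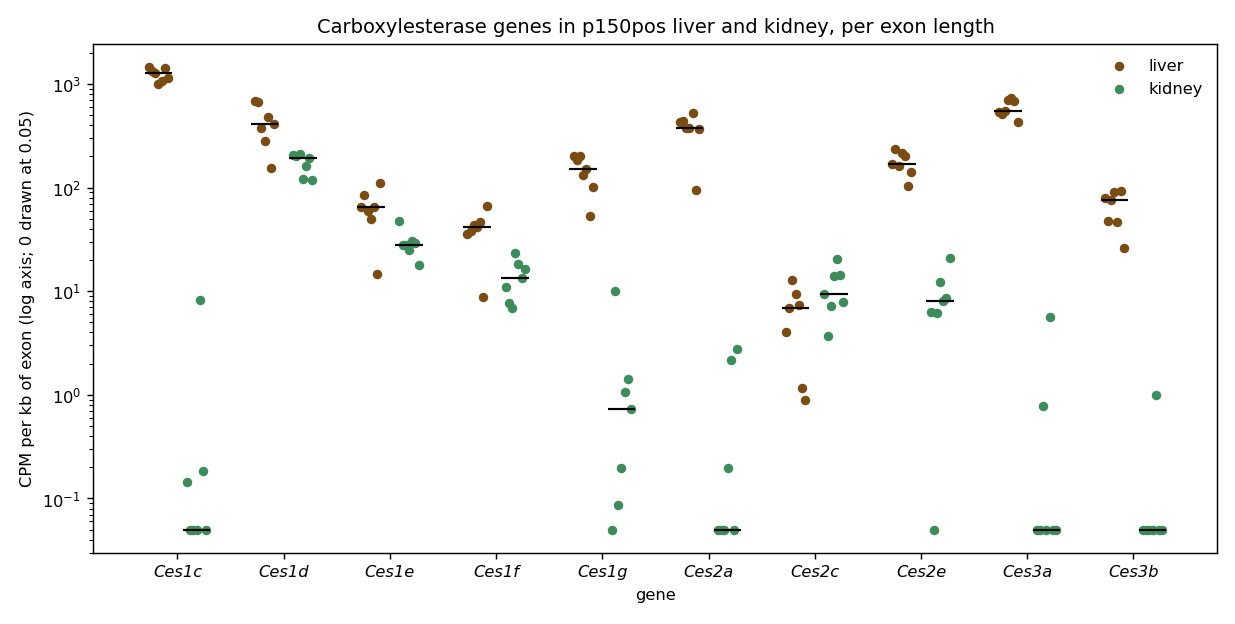
Levels of the 10 genes in 7 p150pos livers (brown, left) and 7 p150pos kidneys (green, right) in CPM per kb of exon on a log axis, with 0 drawn at 0.05, 1 point per mouse and black bars at the medians. In kidney Ces1d leads (173 ± 39.2 CPM per kb, SD, n = 7) above Ces1e (29.5 ± 9.11), while Ces1c, which leads in liver, is close to 0.

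Per length, kidney levels had another order than liver levels. In p150neg kidneys Ces1d (62.1 ± 17.3 CPM per kb, SD, n = 5) and Ces1e (42.0 ± 22.1) led, with ranges that overlapped between mice. Ces2c (17.1 ± 14.5), Ces1f (14.2 ± 10.0) and Ces2e (7.27 ± 5.6) followed. In p150pos kidneys the whole range of Ces1d (173 ± 39.2, n = 7) lay above that of Ces1e (29.5 ± 9.11). Ces1f (13.9 ± 5.98), Ces2c (11.0 ± 5.6) and Ces2e (8.95 ± 6.53) followed, with ranges that overlapped. Within the same kidney Ces1d was above Ces1e in every mouse of both genotypes. The 10 genes summed to 348 ± 139 CPM in p150neg kidneys (n = 5) and 582 ± 77.5 CPM in p150pos kidneys (n = 7). In cerebellum none of the 10 passed the filter in 8 p150neg and 7 p150pos libraries. The highest values were 13.6 CPM of Ces2e and 13.4 CPM of Ces2c, both in p150neg mouse 16, and Ces1f, Ces1g and Ces3b had 0 counts in all 15.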

How the data were processed

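RNA-seq of liver, kidney and cerebellum gave 1 table of 46 libraries, whose 46 columns were matched to the labels. Its values are raw read counts per gene, as deposited by the authors, and the submitters' processing notes name GRCm38/mm10, SAMtools 1.2, FastQC 0.11.3, STAR 2.4.2a, Picard 1.134 and HTSeq 0.4.1, without their roles. The annotation release and the strand setting are not given in the sources used here. Of 53471 entries 6 repeated an identifier, and 53465 were used. Entries without a symbol (3433) held 0.267% of counts. The 5 libraries that hold RNA of another organ were left out by the rule that defined the gene set.

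CPM are counts per 1000000 of the library total. Genes were filtered with filterByExpr (minimum count 10, minimum total 15), scaled by TMM and tested with edgeR 4.0.16 (quasi-likelihood, R 4.3.3) in separate fits per organ, over all genes, with Benjamini-Hochberg adjustment at 0.05. For liver against kidney, only p150pos libraries entered. The alternatives were RLE scaling, DESeq2 1.42.0, limma 3.58.1 voom, other filters, blocks and left-out libraries. The fits were tested on simulated counts. Relations used exact permutation (SciPy 1.17.1). All 46 libraries, the left-out ones included, had a median of 2.93 M counts. Intervals and floors of 3 counts cover counting error only. The 10 genes and all lists were chosen with earlier results of these data known. Named genes are the 10, the other carboxylesterases, up to 4 called genes per list in liver and 2 in kidney by adjusted p, the 3 nearest patterns for 1 gene per subfamily, and flanking genes, of which 1 is not reported here.

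Liver and kidney of the same mouse are paired by the animal number in the labels: the deviations of 6 p150pos pairs from their group means correlated at 0.124 to 0.325 over 4481 genes, though for 3 of the 6 livers the kidney of another mouse correlated more.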

Additional observations from a re-analysis of the deposited data

Results flagged for a closer look

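Of 40 groups of 4 or more mice checked (10 genes, 2 organs, 2 genotypes), 9 held a mouse far from the rest of its group. The limit used flags about 1 in 20 groups of independent, normally spread values. Several kidney groups hold mostly 0, as for Ces3b in 6 of 7 p150pos kidneys, and some flags share a library. The 9 of 40 are therefore not compared with that share. In liver the flagged ones were Ces1d in p150neg mouse 3 (812 CPM), Ces2e in p150neg mouse 14 (488 CPM) and Ces2a in p150pos mouse 13 (224 CPM). Of these 3 the last was low. In kidney Ces1e was high in p150neg mouse 1 (177 CPM) and in p150pos mouse 4 (105 CPM). P150pos kidney 10 was far above the rest of its group for Ces1c (19.2 CPM), Ces3a (15.0 CPM) and Ces3b (2.57 CPM), and p150pos kidney 5 for Ces1g (23.9 CPM).

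The left-out libraries, which hold RNA of another organ than their label, had more of some carboxylesterases than any kept library of the organ on the label. The liver-labelled library of mouse 2 had 42.1 CPM of Ces2c, where the highest kept liver had 29.2 CPM. The kidney-labelled library of mouse 2 had 28.9 CPM of Ces1c, 31.4 CPM of Ces2a and 363 CPM of Ces2c, where the highest kept kidneys had 19.2, 6.59 and 88.0 CPM. The kidney-labelled library of mouse 11 had 941 CPM of Ces2a, 934 CPM of Ces2c and 2454 CPM of Ces2e. That of mouse 12 had 739, 717 and 1265 CPM of these 3 genes and 153 CPM of Ces1f, where the highest kept kidneys had 57.1 CPM of Ces2e and 86.0 CPM of Ces1f.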

How the results depend on the processing

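With 1 liver left out at a time, the number of genes called between genotypes in liver lay between 904 and 1489 beside 1152 with all, and 9 to 10 of the 10 carboxylesterases were called lower. With limma voom 8 were, with a filter at 10 CPM 8 of the 9 that passed it, with the prefix block 10 and with Xist as a covariate 9. Over all genes, 477 of 9843, 396 of 7531, 591 of 9843 and 422 of 9843 were called lower in the same settings. The genes were chosen with these levels known, so nothing is read from the counts of members here or below. With all labelled libraries, wrong-organ RNA included, liver gave 740 calls and 5 of the 10, and kidney 1 call and 0 of the 10. Kidney, at 83 calls, was the least stable. It gave 306 with DESeq2, 141 without a filter, 211 without libraries under 1 M counts, 32 with the identifier prefix as a block, and 34 to 211 with 1 kidney left out, the highest without p150neg mouse 3, while Ces1d stayed the 1 member called each time a single kidney was left out. Cerebellum gave 131 calls, 290 with DESeq2, 62 with voom and 91 to 179 with 1 library left out. Liver against kidney gave 5046 calls and 4749 to 5987 with 1 library left out, with 9 members higher each time. Adding the mouse as a replicate block gave 5837 and changed no call of a member. The fold changes of members in this contrast reversed sign for Ces2c only, which was not called, at 0.15 without kidney 10, 0.11 without liver 13 and 0.10 without liver 15, within a range of -0.34 to 0.15. With all labelled libraries, Fitm1 in liver was at 0.0095 and Ces2g in kidney at 2.04, both against the sign with wrong-organ RNA left out. The cause was not tested. Depth limits the low genes in kidney most, where p150neg mouse 3 had 0.27 M counts.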
